A study of Mus musculus with 12 samples.

Results

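In 4T1, a mouse mammary carcinoma line, 6052 of 67038 open regions called in all 6 ATAC-seq libraries climbed in rank after treatment with decitabine (DAC). ATAC-seq marks open chromatin with a transposase that inserts adapters into accessible DNA. The groups were 4T1 cells given 1 µM DAC for 48 h (3 libraries), 4T1 controls (3 libraries), B16F10 mouse melanoma cells given 0.1 µM DAC for 48 h (3 libraries) and B16F10 controls (3 libraries). Both are established lines grown in culture, and dead cells were removed with beads before transposition. The labels do not say whether replicates came from separate cultures, so spreads and p-values describe these libraries and may be technical.

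The members were chosen by their own 4T1 values. Peaks of the 6 libraries that overlapped by at least 1 bp were joined into 146712 regions, and 67038 of them held a peak in every library. In each library these shared regions were ranked by the highest fold enrichment, the authors' measure of peak height over local background, and given a percentile, where 100 is the strongest. A rising region had its lowest DAC percentile above its highest control percentile and a mean DAC percentile at least 20 above the mean control percentile. By this rule 9.03% of shared regions rose, and by the mirrored rule 7314 fell, which is 10.9%. Every DAC percentile lay above every control percentile, at any size of difference, in 34.9% of shared regions. The 4T1 values of the members are therefore given as a description, with no test.

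DAC is a nucleoside that is built into DNA during replication and traps DNA methyltransferases, so that daughter strands lose methylation at CpG dinucleotides. Methylated CpG is common outside CpG islands and over repeats, where it goes with closed chromatin. Distal open regions in epithelial tumour lines are often bound by AP-1, a dimer of FOS and JUN family proteins, and many boundary sites are bound by CTCF, a zinc finger protein whose binding can be blocked by methylation.

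The rising regions were sorted into 4 kinds, and the windows of 150 bases around the summit of the 2 members of largest difference in each kind are printed because they show what the kinds look like. Promoters overlap the 1000 bp on either side of a protein-coding gene's annotated start, and the other kinds lie outside promoters. Nearest names the closest annotated start of a protein-coding gene at any distance, and a link to that gene was not tested. All windows were read from RefSeq's GRCm38.p6 on the plus strand, with CpG in capitals.
Promoter of Prss42, chr9:110797097-110797246: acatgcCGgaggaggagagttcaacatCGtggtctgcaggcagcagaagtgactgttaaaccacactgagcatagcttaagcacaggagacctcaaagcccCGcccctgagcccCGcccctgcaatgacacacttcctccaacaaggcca
Promoter of Nkapl, chr13:21468485-21468634: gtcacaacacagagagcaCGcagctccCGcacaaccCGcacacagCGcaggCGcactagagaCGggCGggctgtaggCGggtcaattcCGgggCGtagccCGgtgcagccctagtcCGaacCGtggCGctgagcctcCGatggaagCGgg
Island-like, intron of Fpr3, chr17:17910239-17910388: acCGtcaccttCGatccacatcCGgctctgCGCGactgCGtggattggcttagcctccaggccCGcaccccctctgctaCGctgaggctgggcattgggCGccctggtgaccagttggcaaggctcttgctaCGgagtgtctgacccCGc
Island-like, intergenic, nearest Sh2d1b1, chr1:170255639-170255788: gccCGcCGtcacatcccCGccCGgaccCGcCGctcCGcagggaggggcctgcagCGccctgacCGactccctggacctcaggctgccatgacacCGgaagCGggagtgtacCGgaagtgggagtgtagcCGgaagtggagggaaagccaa
Mostly repeats, nearest Grxcr1, chr5:68220961-68221110: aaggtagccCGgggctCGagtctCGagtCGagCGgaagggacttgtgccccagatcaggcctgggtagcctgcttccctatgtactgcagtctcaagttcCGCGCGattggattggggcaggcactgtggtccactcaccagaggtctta
Mostly repeats, nearest Cyp2r1, chr7:114594471-114594620: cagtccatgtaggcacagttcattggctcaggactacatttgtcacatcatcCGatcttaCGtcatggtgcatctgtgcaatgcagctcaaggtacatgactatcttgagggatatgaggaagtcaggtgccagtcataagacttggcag
Other distal, nearest Pcdh17, chr14:84171632-84171781: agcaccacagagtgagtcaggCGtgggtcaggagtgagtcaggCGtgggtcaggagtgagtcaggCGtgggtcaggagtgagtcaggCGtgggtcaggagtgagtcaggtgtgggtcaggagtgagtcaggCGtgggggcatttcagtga
Other distal, intron of Atg2b, chr12:105655623-105655772: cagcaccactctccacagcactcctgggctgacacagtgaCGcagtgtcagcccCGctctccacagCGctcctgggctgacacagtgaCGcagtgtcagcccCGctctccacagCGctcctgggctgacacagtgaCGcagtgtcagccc
The window of the Nkapl promoter holds 16 CpGs and that of the Prss42 promoter 4. The windows nearest Pcdh17 and in Atg2b are short sequences repeated in tandem, and the window nearest Pcdh17 carries 6 copies of the AP-1 motif.

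The 3 DAC libraries listed 109188 to 119795 peaks and the 3 4T1 controls 90608 to 95101. The median fold enrichment of all listed peaks was 5.82 ± 0.220 in DAC libraries and 8.20 ± 0.166 in controls (SD, n = 3 each). Over the shared regions the raw fold enrichment of every DAC library lay below that of every control at 55.9% of regions, so a percentile states a region's place among the others and not its height. Libraries of 1 arm differed by a median of 3.43 to 3.67 percentiles per region, and libraries of different arms by 9.66 to 10.2. All 10 mammary epithelial markers fixed for the check (among them Epcam, Cdh1 and Krt8) had a promoter peak in all 6 4T1 libraries, against 1 of 10 (Elf3) in B16F10. Of 8 melanocyte markers, 7 had one in every B16F10 library and 2 (Mitf and Pmel) in 4T1. Leukocyte markers had 0 to 2 of 7, fibroblast markers 1 to 2 of 5 and endothelial markers 0 to 1 of 5 in a 4T1 library.

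Among the shared regions, rising regions ranked low in controls and in the middle and upper part in DAC libraries. Their median percentile was between 60.3 and 60.5 in the 3 DAC libraries and between 27.2 and 27.7 in the 3 controls. The median difference was 27.1 percentiles, 2344 members differed by at least 30 and 432 by at least 50. The mean DAC percentile was above 80 in 848 members and at or below 20 in none, while the mean control percentile was above 80 in none and at or below 20 in 2168. Raw fold enrichment moved the same way in most members: it was higher in every DAC library than in every control at 5222 of 6052, or 86.3%, against 12.3% of all shared regions. The rule ranked these same values, so the high share follows largely from the choice of members. Total peak width in a region was 620 bp in DAC libraries and 412 bp in controls at the median member, against 599 and 611 bp over all shared regions. The strongest DAC and control summits were 9 bp apart at the median member, against 7 bp over all shared regions.

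The 10 members of largest difference lay in introns (6), between genes (3) and in an exon (1), and none was a promoter. The region nearest Grxcr1, a gene of the hair cell bundle, at chr5:68220607-68222020, was fully soft-masked as repeat and had percentiles of 99.93, 99.91 and 99.84 in DAC libraries, against 10.83, 3.14 and 9.23 in controls. Among the shared regions it was near the bottom in controls and within the top percent in every DAC library. The region nearest Pcdh17, a cell adhesion protocadherin, at chr14:84171252-84171977, had 97.62, 96.00 and 96.01 in DAC libraries, against 4.08, 5.66 and 5.71 in controls. The starts of Grxcr1 and Pcdh17 were 189201 and 271856 bp away.
A region in an intron of Maml3, a co-activator of Notch signalling, at chr3:51991045-51991660, had percentiles of 98.14, 98.96 and 98.84 in DAC libraries, against 16.47, 12.58 and 13.32 in controls. The intronic region of Foxp1, a forkhead transcription factor (also within the annotated Gm20696), at chr6:99485077-99486253, had 91.84, 89.13 and 92.83 in DAC libraries, against 9.55, 8.84 and 13.32 in controls. Groups stayed far apart at both. The other 6 lay nearest Cyp2r1, a vitamin D hydroxylase, in introns of Atg2b (autophagy), Aldh3a2 (a fatty aldehyde dehydrogenase), Zfp958 (a zinc finger protein) and Ctnna3 (an alpha catenin), and in an exon of Rnf41 (a ubiquitin ligase), with mean differences of 78.3 to 88.4 percentiles. Outside repeats the list of 10 was completed by a region nearest Basp1, a membrane protein of neurons, at 76.9 and an exon of Wnt2, a secreted ligand, at 76.5. The start of Basp1 was 277696 bp away.

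**Figure D1:**
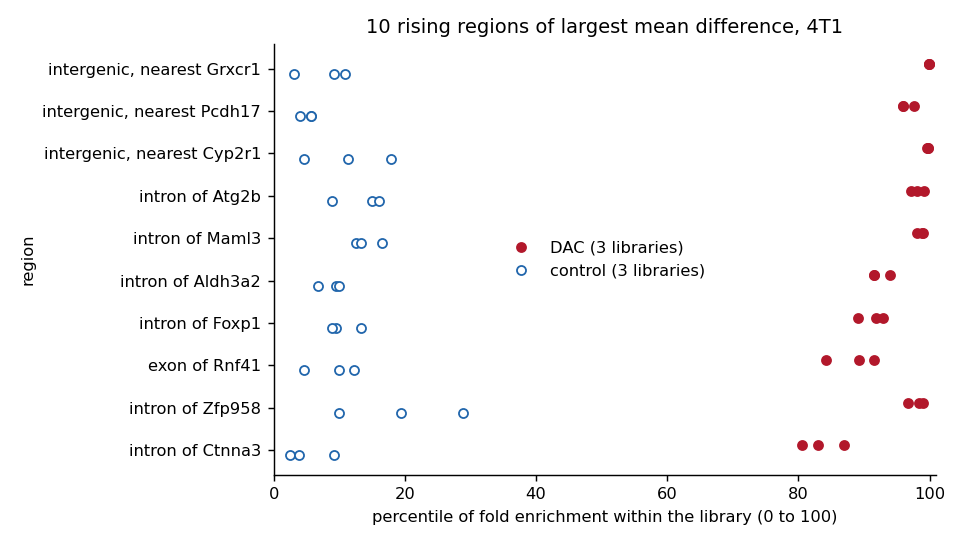
Percentile of fold enrichment within each library (horizontal axis, 0 to 100) at the 10 rising regions of largest mean difference; filled points are the 3 DAC libraries and open points the 3 controls. The DAC points lie between 80.57 and 99.93 and the control points between 2.44 and 28.91; these values chose the regions.

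The threshold did not cut at a gap. Just inside it were the promoter of Per1, a clock gene, an intron of Styk1 and an exon of Scly, each at 20.001 percentiles. Just outside lay a region nearest Ifrd1 at just under 20, an intron of Rnls at 19.999 and the promoter of Sec31b at 19.999. At Per1 the percentiles were 51.47, 47.60 and 50.64 in DAC libraries, against 28.51, 28.56 and 32.65 in controls.

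By kind, 4210 members (69.6%) were distal regions that were neither island-like nor mostly repeats, 1021 (16.9%) were promoters, 667 (11.0%) were mostly repeats and 154 (2.54%) were island-like outside promoters. Mostly repeats means at least 50% soft-masked bases, and island-like means an observed to expected CpG ratio above 0.6 with GC above 50%. Repeats held the highest share of risers: 20.9% of shared repeat regions rose, against 8.23% of other distal regions, 9.14% of promoters and 10.3% of island-like regions. Repeat members sat lowest in controls, with medians of 58.83 in DAC libraries and 19.01 in controls. Promoter members sat highest, with 69.2 in DAC libraries and 44.6 in controls. Over all shared regions the order in controls was the same. The medians there were 30.99 for repeats, 47.48 for other distal regions, 50.23 for island-like regions and 64.12 for promoters. The largest difference was 62.9 at a promoter, 68.9 at an island-like region, 91.4 at another distal region and 92.2 at a repeat. Among island-like members, the intron of Fpr3, a gene of the formyl peptide receptor family, had percentiles of 77.24, 76.14 and 76.75 in DAC libraries, against 4.08, 8.84 and 10.63 in controls. The region nearest Sh2d1b1, a gene of an adaptor in immune cells, had 97.79, 95.13 and 94.73 in DAC libraries, against 31.66, 28.07 and 30.30 in controls.

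**Figure D2:**
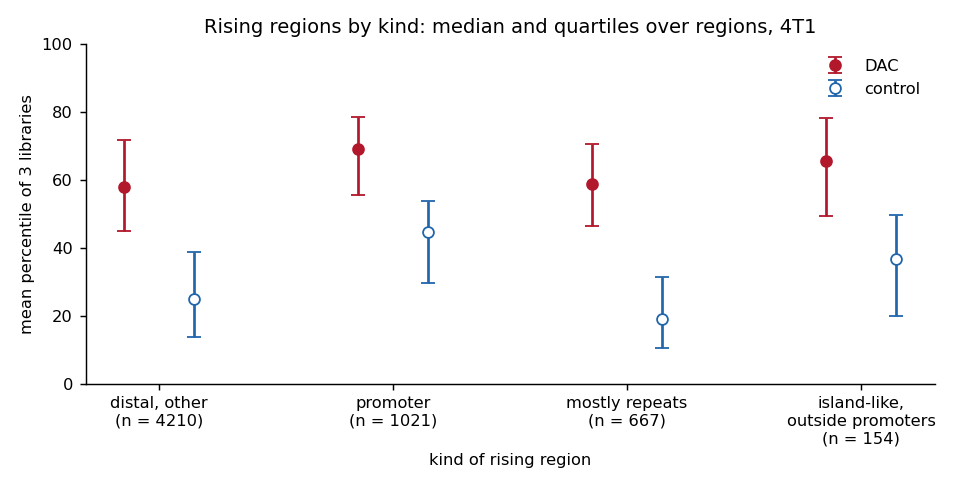
Mean percentile of 3 libraries (vertical axis) in each kind of rising region; points are medians and bars quartiles over regions, filled for DAC and open for control. Repeats and other distal regions start lowest in controls (medians 19.01 and 25.09) and promoters highest (44.6). The order in controls is the same over all shared regions.

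CpG content separated rising from falling regions far more than it separated rising regions from the shared set. The median was 1.55 CpG per 100 bp in rising, 1.03 in falling and 1.39 in all shared regions. Island-like content was found in 1053 rising regions (17.4%), in 90 falling regions (1.23%) and in 14.1% of all shared regions. Across 10 groups of equal size by CpG content the share that rose was 8.19% in the poorest and 10.6% in the richest, while the share that fell was 17.8% in the poorest and 0.835% in the richest. In 5 groups of equal size by GC content, low to high, 8.20%, 9.59%, 9.43%, 9.01% and 8.91% rose, while 15.9%, 12.9%, 11.8%, 9.56% and 4.25% fell. The island-like share depended on the measure of height. With regions ranked by −log10 q it was 8.50%, below the 14.1% of all shared regions.

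**Figure D3:**
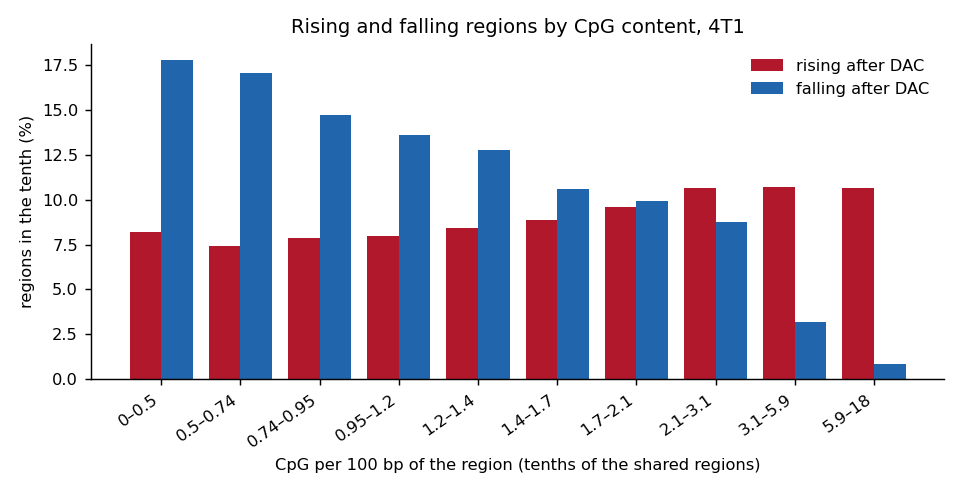
Share of shared regions that rose (left bar) and fell (right bar) in 10 groups by CpG per 100 bp. The rising share stays between 7.42% and 10.7%, and the falling share ends at 0.835% in the richest group.

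Other distal regions that rose carried the AP-1 motif (TGACTCA on either strand) more often than all shared distal regions, and the CTCF motif less often. AP-1 was found in 2365 of 4210 (56.2%), against 35.04% of falling distal regions and 42.4% of all shared distal regions. The CTCF motif was in 167 (3.97%), against 10.9% of falling and 10.3% of all. TEAD (GGAATG) was in 15.8% of rising, 21.6% of falling and 17.6% of all shared distal regions, and RUNX (TGTGGT) in 20.2%, 27.7% and 22.5%. At least 2 copies of AP-1 were in 419 rising distal regions (9.95%), against 5.58% of all. Of shared distal regions with 0, 1, 2 and at least 3 copies, 6.26%, 10.3%, 13.7% and 27.0% rose, the last out of 211. The 3 windows of 100 bases below hold AP-1, in capitals, in the 3 distal members of largest difference after the tandem copies nearest Pcdh17 that have it inside the window, and show single sites.
Intron of Maml3, chr3:51991297-51991396: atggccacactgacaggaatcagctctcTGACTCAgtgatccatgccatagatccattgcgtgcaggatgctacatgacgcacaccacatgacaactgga
Exon of Rnf41, chr10:128441472-128441571: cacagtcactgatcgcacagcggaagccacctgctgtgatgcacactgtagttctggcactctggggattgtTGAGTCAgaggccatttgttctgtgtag
Nearest Basp1, chr15:25136018-25136117: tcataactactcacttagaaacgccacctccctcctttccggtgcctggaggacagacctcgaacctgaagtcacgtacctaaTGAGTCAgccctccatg

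The AP-1 share was lowest in regions with a moderate loss of rank and highest in regions with a large gain. In bands of increasing difference it was 38.2% below −40 percentiles, 34.2% between −40 and −20, 31.5% between −20 and −10, 46.3% between 0 and 10, 55.1% between 20 and 30 and 58.5% between 40 and 60, and it was 51.5% of the 103 regions above 60. The CTCF share over the same bands was 4.396%, 12.5%, 16.2%, 8.73%, 5.06%, 1.93% and 0.971%. Within control percentiles of 20 to 40, AP-1 was in 58.3% of 1573 rising and 34.6% of 9439 other distal regions, and in each of 5 groups by GC content the rising share was above the share of all. CRE (TGACGTCA), the site of CREB and ATF proteins with a central CpG, was rare, in 2.00% of rising and 0.678% of all shared distal regions. Of the 347 with it, 84 rose (24.2%) and 9 fell (2.59%), against 8.23% and 13.2% of all shared distal regions. The E-box CACGTG, also with a central CpG, was in 5.58% of rising and 3.64% of all shared distal regions. Motif matches say which letters lie in the window; binding was not measured. The AP-1 share of rising distal regions was 54.7% to 57.6% under every other ranking, threshold, filter and library left out.

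**Figure D4:**
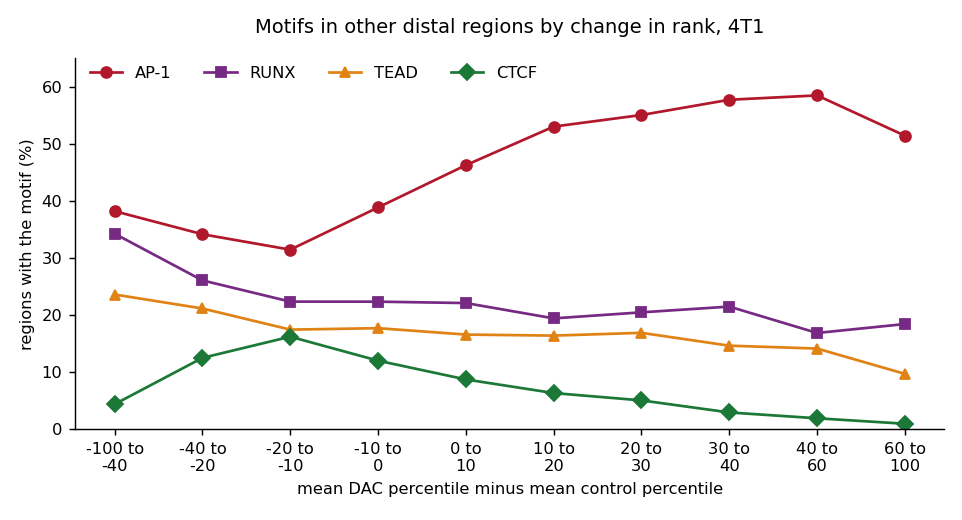
Share of shared distal regions with each motif (vertical axis, %) by mean DAC percentile minus mean control percentile (horizontal axis, in bands). AP-1 is in 31.5% of regions between −20 and −10 and 58.5% between 40 and 60, while CTCF is in 16.2% and 1.93%.

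Among the 670 members that were mostly repeats, counting the 3 at promoters, 150 shared a sequence of 16 bases, ACTACGCAGGGCGGGG, within 100 bp of the summit. It was picked as the most frequent one there, so its share in rising regions is part of the choice. It occurred in 283 shared regions on 20 chromosomes, of which 150 rose and 7 fell. Island-like content was found in 127 of the 150 and in 232 of the 283. Of all 365 shared repeats with island-like content, 40.3% rose. The 16 bases were held by 942 of 17563 regions called in all 3 DAC libraries and in no control (5.36%), against 0.422% of all shared regions. Repeats made up 46.6% of the former and 4.84% of the latter. Among regions that were mostly repeats the shares with the 16 bases were 11.5% and 8.72%. The name of the repeat family was not looked up. The 3 members of largest difference that have all 16 bases inside a window of 100 bases are shown, with the 16 bases in capitals on the strand where they lie.
Nearest Eda, chrX:99907486-99907585: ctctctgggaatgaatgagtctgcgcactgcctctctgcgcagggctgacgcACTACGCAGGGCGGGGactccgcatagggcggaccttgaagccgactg
Nearest Fam19a5, chr15:87295043-87295142: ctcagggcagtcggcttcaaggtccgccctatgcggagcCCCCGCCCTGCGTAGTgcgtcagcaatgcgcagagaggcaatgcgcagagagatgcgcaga
Nearest Creb1, chr1:64384191-64384290: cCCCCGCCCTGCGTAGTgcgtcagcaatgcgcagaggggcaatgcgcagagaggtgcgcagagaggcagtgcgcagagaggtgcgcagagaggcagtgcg
The region nearest Eda, at chrX:99907210-99907807, had percentiles of 90.57, 83.38 and 80.26 in DAC libraries, against 6.08, 3.14 and 11.95 in controls. The nearest starts were 68070 bp away at Eda, 249206 bp at Fam19a5 and 148404 bp at Creb1. NFY (CCAAT) was in 51.3% of rising repeat regions outside promoters, against 22.2% of falling and 33.2% of all shared ones. Of rising repeats, 33.0% lay within 10 kb of a region open in all DAC libraries and no control, against 25.02% of all shared repeats; over all kinds the shares were 15.9% and 15.7%.

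Promoters as a class shifted upwards: the median difference over the 11176 shared promoter regions was 7.49 percentiles. A promoter in a rising region was found for 1163 of 12025 genes, or 9.67%, and in a falling region for 258, or 2.15%. The largest difference was at Prss42, a serine protease gene, at chr9:110796832-110797737, with 70.41, 77.31 and 74.19 in DAC libraries, against 15.02, 11.29 and 6.81 in controls. Its summit lay 994 bp from the annotated start. A promoter region only has to overlap the 1000 bp on either side of a start. Summits lay further away at Slc16a5 (1059 bp), Nfix (1150 bp), Krt7 (1319 bp) and Cxcl12 (1498 bp), among others. At Nkapl, a gene of male germ cells, at chr13:21468150-21468858, the percentiles were 75.04, 74.71 and 80.19 in DAC libraries, against 13.60, 20.27 and 13.32 in controls.
Tex19.1, a germ cell gene known to respond to loss of promoter methylation, had 87.47, 87.65 and 87.57 in DAC libraries, against 28.41, 23.37 and 29.55 in controls. At these 3 promoters DAC and control values did not overlap, as the rule requires. Ifit3b, an interferon-induced gene, had 58.94, 53.40 and 70.03 in DAC libraries, against 9.55, 16.40 and 10.63 in controls. The promoter of Fblim1, which encodes a filamin-binding adaptor, had 85.15, 81.92 and 82.81 in DAC libraries, against 33.50, 38.92 and 22.67 in controls. Among the other 20 promoters of largest difference, at 37.4 to 58.6 percentiles, were those of Krtap4-16 (a hair keratin-associated protein), Disp3, Cacng2 (a subunit that guides glutamate receptors), Slc16a5 (a monocarboxylate transporter), Kbtbd6 (a ubiquitin ligase adaptor), Nfix (a transcription factor), Il17ra (the interleukin 17 receptor), Cst3 (cystatin C) and Pla2g5 (a phospholipase). Ranked by −log10 q, only 4.75% of rising regions were promoters, 2.16% of genes had a rising promoter, and the median difference of promoters was 1.53 percentiles.

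Of 15 gene lists, mammary and epithelial genes had 9 of 42 promoters in a rising region and none in a falling one, against 9.67% and 2.15% of all genes. Among the 9 were Csn3 (kappa-casein), Krt7, Krt17 and Krt18 (keratins), Gata3 (a luminal transcription factor), Grhl2 (a transcription factor of epithelia), Cdh1 (E-cadherin) and St14 (a membrane protease). Csn3 had 70.70, 70.75 and 74.61 in DAC libraries, against 33.08, 18.95 and 30.30 in controls, and Cdh1 had 80.54, 79.88 and 81.91 in DAC libraries, against 56.94, 61.87 and 55.56 in controls. The difference at Cdh1 was 22.7 percentiles, and 5.49 by −log10 q and 2.41 by the mean fold enrichment of the region's peaks. The median over the 44 promoter regions of the list was 8.93 percentiles, close to the 7.49 of all promoters. Ranked by −log10 q the list had 4 rising promoters of 42 (9.52%), against 2.16% of all genes. Its median was then 1.73, against 1.53 of all promoters. With 1 peak per library it had 5 of 33 (15.2%), against 9.36% of all genes. List genes beyond the 30 of largest difference, such as St14, Krt18 and Krt17, fall outside the rule for named genes and are given to complete the counts. Some promoter regions serve a neighbour as well, as with Gata3 and 9230102O04Rik, Cbx3 and Hnrnpa2b1, Rps18 and Vps52, Rpl4 and Zwilch, and Ccl25 and Elavl1.

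Genes of epithelial-mesenchymal transition and matrix had 5 of 29 rising (Vim, S100a4, Itga5, Itgav and Cd44) and 1 falling (Mmp13). Vim, the gene of the filament vimentin, had 57.80, 58.90 and 61.65 in DAC libraries, against 25.32, 23.65 and 24.14 in controls. All 5 left the rule when regions were ranked by −log10 q, with differences of 9.43 at Vim, 2.61 at S100a4, 14.04 at Itga5, 5.13 at Itgav and −3.002 at Cd44, and the list had 1 of 29. By the mean fold enrichment S100a4 at 10.8 and Itga5 at 11.2 left the rule too, and the list had 4 of 29. The counts that follow stand against 9.67% of all genes rising and 2.15% falling, and several lie close to it, such as p53 targets at 9.68% and tumour suppressors at 10.7%. Chemokines and cytokines had 4 of 25 (Cxcl12, Csf3, Tgfb3 and Ccl25) and 1 falling, germline genes 3 of 13 (Tex19.1, Tdrd7 and Terb1), p53 targets 3 of 31 (Tnfrsf10b, Plk3 and Bbc3) and tumour suppressors often methylated in cancer 3 of 28 (Dapk1, Cdh1 and Spint2), with 1 falling. Interferon response and nucleic acid sensing genes had 4 of 53 rising (Rsad2, Irgm1, Cgas and Irf5) and 3 falling (Cxcl10, Ifi44l and Tmem173). Factors and targets of AP-1, TEAD and RUNX had 3 of 27 (Mafg, Yap1 and Tead4) and 1 falling, and genes of DNA methylation and repressive chromatin 2 of 40 (Cbx3 and Gadd45b). Developmental transcription factors had 1 of 42 rising and 3 falling, imprinted genes 1 of 14 (H13), neuronal genes 1 of 11 (Nefh), pluripotency genes 0 of 5, with 1 falling, and antigen presentation genes 0 of 31, with 1 falling. With ranks by −log10 q, where 2.16% of all genes rose, chemokines had 1 of 25, germline genes 2 of 13, p53 targets 1 of 31, tumour suppressors 1 of 28, interferon genes 5 of 53 and the AP-1, TEAD and RUNX list 0 of 27.

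Housekeeping genes, a list meant as a reference, had 5 of 35 rising (Rps18, Ppia, Rab7, Rpl13a and Rpl4) and 1 falling (Eef1a1). Since 3 of the 5 encode ribosomal proteins, all genes with Rpl or Rps symbols were counted, a family chosen after its values were seen. A rising promoter was found for 27 of 74 (36.5%) and a falling one for none, and the difference was above 0 at 76 of 77 promoter regions, with a median of 16.7 percentiles. Rps9 had 87.35, 90.05 and 85.81 in DAC libraries, against 50.21, 50.67 and 43.29 in controls, and Rps12 had 63.49, 71.06 and 62.63 in DAC libraries, against 27.33, 31.21 and 25.49 in controls. The median fold enrichment of these 77 regions was 13.4 in DAC libraries and 12.1 in controls, against 12.5 in DAC libraries and 13.1 in controls over all promoters. By −log10 q, 1 of the 74 rose, with a median of 4.90 percentiles. Another 7 families were counted with it, against 9.67% of all genes rising. Keratins had 4 of 13 rising (30.8%), integrins 4 of 19 (21.1%), serine proteases 1 of 8 and solute carriers 19 of 196 (9.69%). Mitochondrial ribosomal proteins had 6 of 76 (7.89%), zinc finger genes 27 of 357 (7.56%) and histones 2 of 65 (3.08%). As a family keratins did not shift upwards as promoters did. Their median difference was 0.398 percentiles with 7 of 13 promoter regions above 0, against 7.49 and 80.4% of all promoters. Integrins had a median of 11.3, with 14 of 20 above 0. By −log10 q, where 2.16% of all genes rose, keratins had 2 of 13 and integrins 1 of 19.

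In gene bodies, the annotated readthrough gene Gm20388, which spans 73 other protein-coding genes, held 30 rising regions of 454 shared ones, or 6.61%, against 9.03% of all shared regions. Glis3, a zinc finger transcription factor, held 6 of 21, Nfib, a nuclear factor I gene, 6 of 27, 2010111I01Rik 6 of 29, Atxn1, the ataxin-1 gene, 6 of 33 and Fgfr2, a growth factor receptor whose annotation here spans 30 other genes, 6 of 81, or 7.41%. The order is by number of members, which grows with the shared regions in a body, so Gm20388 and Fgfr2 are listed with a share below that of all regions. Cd44, a hyaluronan receptor, held 5 of 10 with none falling, and Myh9, a non-muscle myosin, 5 of 16. Inpp4b, a phosphoinositide phosphatase, held 5 of 18 and Atrnl1 5 of 21; others with 5 were ordered by their share. The 5 regions of Cd44 were the promoter, 3 intronic and 1 exonic region, with differences of 21.03 to 24.2 percentiles, and 3 of them held AP-1. By −log10 q the Cd44 promoter changed sign, to −3.002.

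B16F10 libraries, which the rule did not use, were examined at the same places. A peak lay over 29.5% to 31.1% of the members in the 3 DAC libraries and over 26.5% to 27.2% in the 3 controls, against 41.7% to 43.6% and 38.7% to 40.1% of all 4T1 shared regions. A peak of at least 1 B16F10 library overlapped 34.8% of members by 1 bp or more, against 49.1% of all 4T1 shared regions. By kind the share was 86.1% of rising promoters, against 85.4% of all shared promoters, 76.0% of rising island-like regions, against 76.5%, 23.9% of rising other distal regions, against 41.5%, and 15.7% of rising repeats, against 31.2%. The dose in B16F10 was lower than in 4T1, and line and dose cannot be told apart.

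Of the 35979 regions called in all 6 B16F10 libraries, 1486 overlapped a 4T1 rising region. Their median difference was 1.58 percentiles, against −2.01 at falling regions and 0.0435 over all B16F10 shared regions. The share above 0 was 59.2%, against 40.2% and 50.4%. Over the 22677 B16F10 regions at any 4T1 shared region the median was 0.314, with 52.5% above 0. Without B16F10 DAC replicate 2, whose list lacks unplaced sequences, the medians were 2.14 at members and 0.158 over all. Without control replicate 1 they were 1.05 and −0.0395, and without control replicate 3 1.09 and −0.00182, so the value at members moved by over 1.5 times without control replicate 1. Ranked by −log10 q they were 0.121 and −0.173. By kind the median was 2.97 over 475 other distal regions, against −0.173 over all 4T1 shared distal ones; at 111 island-like regions it was 2.40, against 0.374, at promoters 1.16, against 0.735, and at 39 repeats −1.27, against −0.808. Rising distal regions with AP-1 had a median of 3.47 and those without it 2.60, against 3.08 and −0.797 over all shared distal regions. At ribosomal protein promoters the median was −2.07 over 77 B16F10 regions, opposite in sign to 4T1. All DAC percentiles lay above all control percentiles at 245 of the 1486 (16.5%), against 11.4% of all, and below them at 107 (7.20%), against 10.9%. By the full rule, with a difference of at least 20, 50 were higher (3.36%), against 2.73% of all, and 13 were lower (0.875%), against 2.39%. No test was made of the members as a group.

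Single regions were tested with limma over all 35979 B16F10 regions. At an adjusted p below 0.05, 152 were higher after DAC (0.422%) and 92 were lower (0.256%). Of the 1486 at members 12 were higher (0.808%) and 0 lower, and at an unadjusted p below 0.05 the counts were 181 and 71, together 17.0% of regions at members, against 17.2% of all regions. Ranked by −log10 q, 32 of the 1486 passed as higher and 9 as lower, against 617 and 403 of all 35979 regions. The 12 higher by the main ranking were all other distal regions, 6 of them with AP-1. At all 4T1 shared regions 97 were higher (0.428%) and 35 lower (0.154%). Of those 97, 88 were at other distal regions, and 58 were at other distal regions with AP-1. These calls rest on all 6 libraries together: leaving out any 1 of them left 0 calls among all regions and among members, with 203 to 244 regions at members at an unadjusted p below 0.05 (13.6% to 16.4%, against 14.03% to 15.9% of all).

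The region nearest Trim24, a chromatin reader gene, at chr6:37723211-37724049, had B16F10 percentiles of 84.3, 83.7 and 71.6 in DAC libraries, against 11.5, 11.7 and 14.003 in controls, a difference of 67.5 with a standard error of 4.08 (limma, adjusted p = 0.0196). In 4T1 its difference was 25.6, and the 4T1 summit lay 147324 bp from the start of Trim24. The region nearest Cd209f, a lectin gene, at chr8:4088637-4089209, had 93.9, 79.4 and 84.3 in DAC libraries, against 40.3, 36.8 and 35.9 in controls, a difference of 48.2 with a standard error of 4.27 (limma, adjusted p = 0.0363). The other 8 named by the rule lay in introns of Xpnpep1, Bcr, Extl3, Ube2h and Dlgap1 and nearest Klf6, Bicral and Ptpn3, with differences of 25.2 to 51.8 percentiles and limma's adjusted p of 0.0377 to 0.0461. The starts of Klf6, Bicral and Ptpn3 were 224676, 15883 and 6891 bp from the 4T1 summits. Extl3, a glycosyltransferase gene, differed by 47.1 percentiles in 4T1 and Ube2h, a ubiquitin-conjugating enzyme gene, by 39.0. The remaining 2, nearest Irf2bpl and in an intron of Dip2b, complete the 12. In all 12 the lowest DAC value lay above the highest control value. The test chose them on these same values, so the separation follows largely from the choice.

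**Figure D5:**
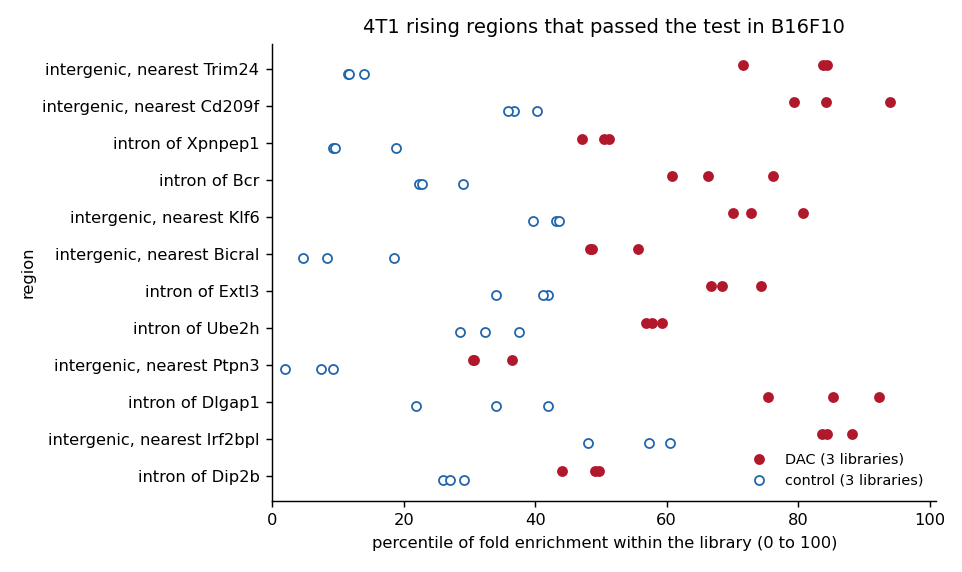
Percentile of fold enrichment within each B16F10 library (horizontal axis, 0 to 100) at the 12 regions that overlap a 4T1 rising region and passed limma's test; filled points are the 3 DAC libraries and open points the 3 controls. The widest gap is nearest Trim24, and no call was left when any 1 library was left out.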

How the data were processed

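ATAC-seq peak lists of 12 libraries were used, 1 list per library. The authors' peak caller wrote for each peak a fold enrichment over local background (a ratio), a −log10 p-value, a −log10 q-value, a score and the place of the summit. The deposited score repeats 10 times the −log10 q-value and was not used. Per the submitters' processing notes the tools included Bowtie2 and MACS2 and the genome build was mm10; no version is given there. The lists end at a q of 0.05 and hold no read counts, so the depth behind each value is unknown and no counting interval was possible for a level. The list of B16F10 DAC replicate 2 has no peak on unplaced sequences, unlike the other 11. The series' design text names 2 sequencer models without saying which library ran on which, so the instrument could not be examined as a batch.

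Peaks on the 19 autosomes and X were merged per line when 1 bp or more was shared, and fold enrichments were ranked within each library, with ties sharing their mean rank. A rank is relative: a region can rise in rank because others fell. Sequence was read from RefSeq's GRCm38.p6, the assembly that mm10 names, and genes from GENCODE M21. CpG, GC and soft-masked bases were measured over the whole region, and motifs, read in both orientations, over 200 bp centred on the summit of highest rank. The B16F10 percentiles were tested with limma 3.58.1 in R 4.3.3 (two-sided, Benjamini-Hochberg over all 35979 regions, threshold 0.05), after the script had been tested on simulated data. Of 12 libraries, none was left out.

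The members, the gene lists, the motifs and the rule for named regions were chosen with earlier results of these data known. Named are the 10 members of largest difference in percentile, the 25 such promoters, up to 30 list genes at rising promoters, the 10 gene bodies with most members, the 10 such members outside promoters and repeats, the 3 regions on either side of the threshold, and up to 10 members past the B16F10 test. The bands of difference, the splits by control level, the copies of the AP-1 motif, the gene families by symbol, the shared 16-base sequence and the windows that show it or AP-1 were chosen after the values were seen. Alternatives ranked by −log10 q, changed the threshold, the overlap, the peaks, the value of a region and the model, and left out each library.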

Additional observations from a re-analysis of the deposited data

How the results depend on the processing

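The number of rising regions was within 1.5 times of 6052 under every other ranking, peak filter and overlap, and 3890 of the 6052 (64.3%) still rose when ranked by −log10 q. With a threshold of 10 percentiles 15618 rose, of which 26.4% were island-like, 27.7% promoters and 6.74% mostly repeats, and with 30 it was 2344, with 9.04%, 5.33% and 17.1%. Ranked by −log10 q the same shares were 8.50%, 4.75% and 15.9%, and with peaks of −log10 q of 5 or more 19.4%, 19.4% and 9.93%; with exactly 1 peak per library the promoter share was 15.7%. The cause of these moves was not tested. With 1 library of 4T1 left out the number was 6177 to 6253, the island-like share 16.3% to 17.5%, the promoter share 15.7% to 17.1% and the repeat share 10.9% to 12.2%. Of the named regions 2 changed sign, the promoter of Cd44 to −3.002 by −log10 q and that of Tgfb3 to −1.881 by the mean of the fold enrichments; 43 others left the rule by −log10 q and 3 to 9 with 1 library left out.

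In B16F10 the calls by normal score were 292 higher and 148 lower. At members 19 were higher and 1 lower, with a median difference of 0.0562 on that scale. Ranked by −log10 q, 617 were higher and 403 lower, with 32 and 9 at members and a median of 0.121 there. With peaks of −log10 q of 5 or more, 78 were higher and 47 lower, with 7 and 0 at members. No label says that replicate numbers pair the libraries. Same-numbered B16F10 libraries had correlations of deviations of −0.0142, −0.0372 and −0.0143, and differently numbered ones −0.00632 to 0.0208. With 3 libraries per arm these values cannot settle whether libraries were paired. With the replicate number as a block, 0 regions were higher and 0 lower, 0 of them members, and 5623 passed an unadjusted p below 0.05. Leaving out a library gave 0 and 0, with 0 members, in all 6 cases, and 5153 to 5819 at an unadjusted p below 0.05. With at least 50% of the 4T1 region covered, 27.1% of members had a B16F10 peak, against 40.3% of all shared regions and 32.7% of falling ones. The lists give no depth, so a limit set by depth cannot be stated.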

Other observations

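Rising regions were spread over the genome. Between 7.30% (chromosome 12) and 10.7% (chromosome 16) of the shared regions of a chromosome rose, and 7.48% on X. The next shared region on either side of a rising one also rose in 8.38% of cases and fell in 11.8%, against 9.03% and 10.9% of all shared regions; within 10 kb the shares were 6.72% and 11.4%.

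At the named rising promoters that were also shared in B16F10, the B16F10 difference ranged from −22.6 percentiles at Rps18 to 19.8 at Ifit3b, and none passed limma's adjusted threshold.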
